A study of Mus musculus with 10 samples.

Results

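The genes described here encode ATP-dependent chromatin remodelers with their companion subunits, histone deacetylases, sirtuins and a set of bromodomain and ARID proteins. They were chosen by symbol: every gene with a protein-coding transcript whose symbol began with Smarc, Arid, Mbd, Hdac, Sirt, Actl6 or Ino80, or was a numbered Chd, Mta or Brd gene, or was Bptf. The rule gave 76 of the 45706 genes in the deposited tables. By role they were 16 subunits of the BAF and PBAF complexes, 3 ISWI and NURF genes, 9 Chd remodelers, 11 Mta and Mbd genes, 5 INO80 genes, 2 other Smarc genes, 4 class I deacetylases, 7 class II and IV deacetylases, 7 sirtuins, 5 bromodomain genes outside BAF and 7 other Arid genes.

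Remodelers use ATP to slide, evict or exchange nucleosomes, and each works as a complex in which related genes compete for the same seat: BAF carries either SMARCA4 (BRG1) or SMARCA2 (BRM) as its motor, and NuRD carries CHD3, CHD4 or CHD5. Deacetylases remove the acetyl groups that bromodomain proteins read, and several of them work inside NuRD, Sin3 and CoREST corepressor complexes. Pluripotent cells are known for a BAF version built on SMARCA4, SMARCC1, SMARCD1 and ARID1A, and NuRD with MBD3 has been studied as a regulator of the exit from, and the return to, pluripotency.

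The study followed mouse embryonic fibroblasts on their way to induced pluripotency by RNA-seq. The fibroblasts carried a doxycycline-inducible OKSM transgene (Oct4, Klf4, Sox2 and c-Myc) at Col1a1 and the M2rtTA activator at Rosa26, on a C57BL/6 x 129 background. There were 5 groups of 2 libraries each: uninduced fibroblasts in fibroblast medium (MEF), cells after 3, 6 and 9 days in embryonic stem cell medium with 1 µg/ml doxycycline and 50 µg/ml ascorbic acid (D3, D6 and D9), and the V6.5 embryonic stem cell line on irradiated feeder fibroblasts (ESC). D3 was the whole culture, whereas D6 and D9 were sorted for the SSEA1 surface antigen, so that day and sort cannot be told apart between D3 and D6. The 2 fibroblast libraries received no doxycycline, and none is listed for the ESC libraries. The embryos' ages are not given in the sources used here. The labels do not say whether libraries of a group came from separate cultures or animals, so p-values measure the spread between these libraries, which may be technical.

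The libraries held 29585876 to 38275024 estimated reads, of which the 76 genes took 0.466% to 0.732%. Marker genes followed the labels: 12 fibroblast markers summed to 9543 to 10030 TPM (transcript abundance per length, scaled to a common total) in MEF, 540 to 569 at D3, 31.9 to 33.9 at D6 and 14.4 in both D9 libraries, where 1 of the 12 was at 0. In ESC they came to 853 to 899 TPM, or 8.95% of the MEF level, with none at 0. A list of 9 pluripotency markers went from 0.588 to 0.853 TPM in MEF, with 1 of the 9 at 0, to 101.5 to 103 at D9 and 2601 to 2630 in ESC. Sex-linked genes set the MEF libraries apart from the induced ones: Xist stood at 0.766 CPM (scaled reads per library) in MEF and at 1010, 1304 and 1075 at D3, D6 and D9, whereas the Y-linked Ddx3y stood at 88.5 in MEF and at 0.164 or less in the induced stages. ESC had 10.2 CPM of Xist and 26.5 of Ddx3y. Origin of the cells and induction therefore cannot be told apart in the comparison of D3 with MEF, and this bears most directly on the 3 X-linked genes of the set, Hdac6, Hdac8 and Smarca1.

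Of the 76 genes, 73 had enough reads to be tested and 66 had at least 100 reads in every library. The neuronal BAF gene Actl6b (1 to 4 reads a library), Mbd3l1 (0 reads in all 10 libraries) and Mbd3l2 (0 to 2 reads) were not tested. A gene is said below to have risen, fallen or passed where edgeR's quasi-likelihood test gave an adjusted p under 0.05 over all 20165 genes tested and the fold change was at least 2. The highest stage exceeded the lowest by a median of 1.94-fold over the 73 genes, against 2.87-fold over all genes tested, and 41 of the 73 (56.2%) stayed under 2-fold, against 30.4% of all genes. In bulk libraries a lower share of cells with a transcript and less of it per cell cannot be told apart.

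From MEF to D3, 6 of the 73 passed as higher (Chd7, Arid3b, Smarca2, Mbd4, Hdac6 and Hdac4), where 14.6% of all genes did, and 2 passed as lower (Smarca1 and Chd5), where 14.5% of all genes did. With the adjusted p alone and no minimum fold, the counts were 44 higher (background 35.4%) and 14 lower (29.5%). That split moved with the scaling: it was 29 against 20 with DESeq2 and 57 against 7 with library sizes alone, a setting that moved the middle of all tested genes from a log2 fold change of 0.08 to 0.285. The counts with the fold minimum were 5 against 3 and 7 against 1 in these settings.

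From D3 to D6, 3 genes passed as higher (Chd5, Chd7 and Hdac6; background 9.26%) and 3 as lower (Smarcd3, Smarca1 and Hdac9; background 10.2%). Without the fold minimum there were 36 higher (29.2%) and 21 lower (27.3%). From D6 to D9 none of the 73 passed as higher (background 5.18%), and Hdac9 and Chd3 passed as lower (background 2.68%). By an unadjusted p under 0.05, 13 genes were higher at D9 but none of them by 2-fold, and neither DESeq2 nor limma called any gene higher there. At the adjusted p alone 8 were higher (15.7%) and 23 lower (18.9%).

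Between D9 and ESC, 7 genes passed as higher in ESC (Smarca1, Smarcd3, Hdac9, Arid3c, Arid3b, Chd5 and Smarcad1; background 18.6%) and 5 as lower (Smarca2, Chd3, Hdac7, Mta1 and Arid5b; background 14.3%). At the adjusted p alone the counts were 23 higher (36.1%) and 36 lower (33.5%). Between the end points, 12 genes were higher in ESC than in MEF (25.5% of all genes) and 10 lower (20.6%), and at the adjusted p alone 39 were higher (40.4%) and 24 lower (36.2%). Arid3c is among the 7 and the 12, but it had enough reads to be tested only through its ESC libraries, so its place in either count supports nothing, and 6 and 11 genes were higher without it. With library sizes alone, where that middle lay at 0.438, the end-point split was 19 higher and 7 lower. With the fold minimum, the share of the set that passed was below that of all genes in each direction of each comparison except the falls from D6 to D9, where it was 2.74% against 2.68%. Comparisons that use the same stage share its libraries. D9 and ESC also differ in cell line, sort and feeders, and doxycycline is listed for D9 but not for ESC. Sex-linked RNA differs between them too, with Xist at 1075 CPM at D9 and 10.2 in ESC, and Ddx3y at 0.0987 and 26.5. Origin of the cells and stage therefore cannot be told apart in this comparison either.

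**Figure D1:**
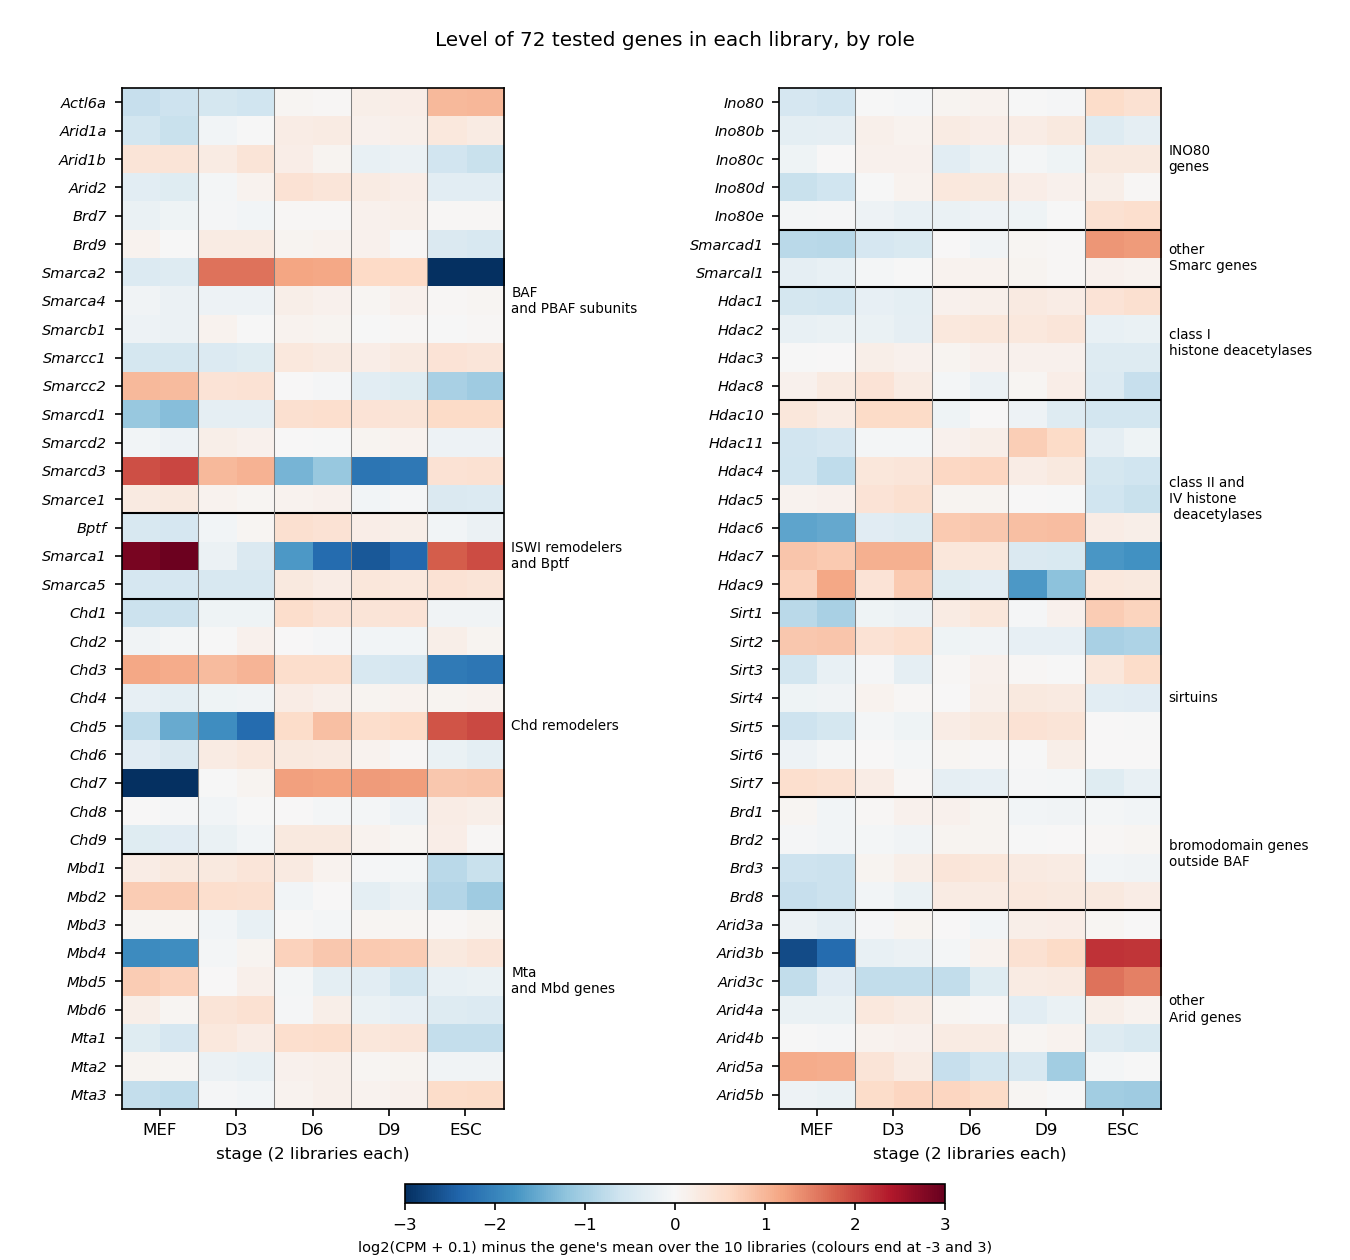
Level of 72 of the 73 tested genes (rows, by role) in the 10 libraries (columns, 2 per stage), as log2(CPM + 0.1) minus the gene's own mean over the libraries. Most rows are pale, and the strongest colours belong to Smarca1, Smarca2, Smarcd3, Chd3, Chd5, Chd7, Arid3b and Hdac7.

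**Figure D2:**
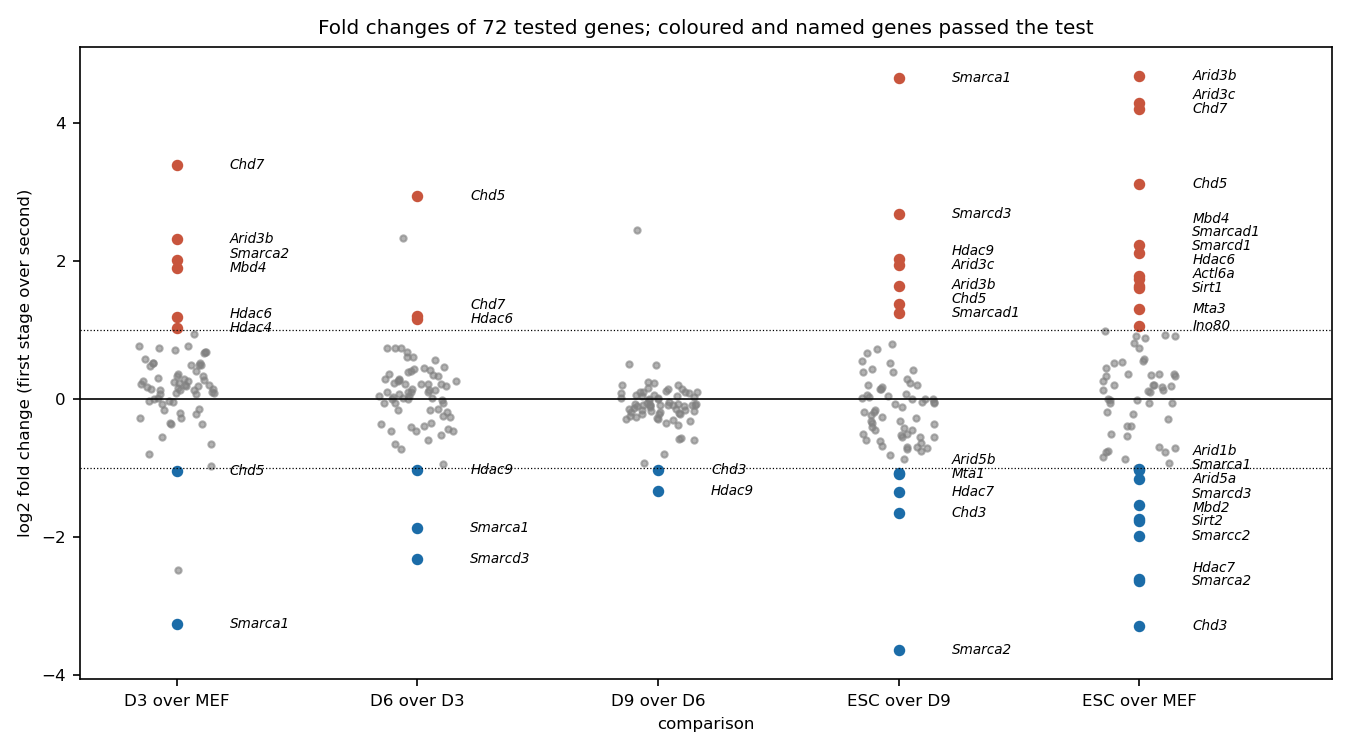
Log2 fold change of 72 of the 73 tested genes (points) in 5 comparisons, with genes that passed the test coloured and named and dotted lines at a 2-fold change. From D6 to D9 only Chd3 and Hdac9 passed, and between ESC and MEF the 22 that passed ran from Arid3b (4.69) down to Chd3 (-3.28).

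Of the alternative BAF motors, Smarca2 moved and Smarca4 hardly did. Smarca2, the gene of the BRM ATPase, rose 4.06-fold from MEF to D3 and lay 12.4-fold lower in ESC than at D9, whereas Smarca4, the gene of the BRG1 ATPase, stayed between 19.5 and 25.9 TPM in all 10 libraries. In TPM, Smarca2 measured 21.3 and 20.6 in MEF, 77.9 and 76.6 at D3, 55.3 and 53.1 at D6, 35.4 and 36.4 at D9, and 3.67 and 3.79 in ESC. No stage overlapped another: D3 was the highest and ESC the lowest. The log2 fold changes were 2.02 ± 0.03 (SE) for D3 over MEF (adjusted p = 1.8e-15), -0.46 from D3 to D6, -0.58 from D6 to D9, -3.64 ± 0.04 for ESC over D9 (adjusted p = 8.7e-17) and -2.64 ± 0.05 for ESC over MEF (adjusted p = 1.9e-15). Smarca4 differed between ESC and MEF by a log2 fold change of 0.19. Summed over all their transcripts, the 2 genes were level in MEF, with 0.969 Smarca4 transcripts per Smarca2 transcript. On the same sums Smarca2 exceeded Smarca4 by 3.71-fold at D3, and Smarca4 exceeded Smarca2 by 6.41-fold in ESC. The ratio differed between stages at the smallest p that the exact permutation test can give, over 945 arrangements (p = 0.00106, or 0.00222 after Benjamini-Hochberg adjustment over the 21 pairs). The equal levels in MEF and the excess of Smarca2 at D3, D6 and D9 rested on Smarca2 transcripts that start late in the gene, described next. Its early-starting transcripts reached at most 12.74 TPM, below Smarca4 in all 10 libraries.

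Smarca2 is annotated with 19 transcripts between chr19:26605050-26778322 (GRCm38, plus strand), and only 30.5% to 50.0% of its reads were assigned to protein-coding ones, whereas every Smarca4 read was. A split of its transcripts, chosen after values were seen, separated the 4 that start in the first 10000 bases of the gene from those that start later. The early-starting ones summed to 2.43 ± 0.041 TPM (SD, n = 2) in MEF, 12 ± 1.05 at D3, 9.12 ± 0.644 at D6, 5.24 ± 0.003 at D9 and 0.36 ± 0.083 in ESC. Later-starting ones summed to 18.5 ± 0.519, 65.3 ± 1.94, 45.1 ± 0.877, 30.7 ± 0.678 and 3.37 TPM in the same order. Both classes were highest at D3 and lowest in ESC, with D3 over MEF at 4.94-fold for the first and 3.52-fold for the second. An exon of the antisense gene 4931403E22Rik overlaps Smarca2, and its part in these reads was not tested.

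The upstream sequences of the pair are shown because their transcripts moved apart. Both windows end at the base before the annotated gene start, are taken from RefSeq (GRCm38.p6), read 5′ to 3′ on the plus strand and cover chr19:26604910-26605049 for Smarca2 and chr9:21615919-21616168 for Smarca4. Capitals mark matches to CCNCNCCC on either strand, the core of the box bound by KLF and SP factors, which also fits many plain GC boxes.
Smarca2: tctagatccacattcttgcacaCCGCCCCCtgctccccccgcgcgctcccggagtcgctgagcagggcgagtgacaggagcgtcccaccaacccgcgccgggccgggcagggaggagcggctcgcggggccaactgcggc
Smarca4: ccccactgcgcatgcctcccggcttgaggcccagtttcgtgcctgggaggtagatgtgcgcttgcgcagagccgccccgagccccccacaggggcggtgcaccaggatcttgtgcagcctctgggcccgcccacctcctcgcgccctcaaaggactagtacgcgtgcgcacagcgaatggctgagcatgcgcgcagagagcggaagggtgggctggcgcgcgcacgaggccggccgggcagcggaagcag
Smarca2 holds 1 match and Smarca4 none in these letters. Entries for 57 of the 76 genes gave 75 promoter windows of 250 bases before the start, and 48 of them (64.0%) held the box, against 45.9% of all 32851 windows. The windows of the set were also richer in G and C, with a median of 63.6% against 52.4%, and in CpG, with a median of 19 against 6, and the part of base composition in these shares was not tested. The E-box CACGTG, a palindrome, was in 5.33% against 6.02%, and the octamer ATGCAAAT, searched on both strands, in 4.0% against 1.6%.

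Among the BAF scaffold subunits, Smarcc2 (BAF170) was lower at each successive stage, while Smarcc1 (BAF155) was higher at D6 and after. Smarcc2 measured 17.3 and 16.6 TPM in MEF, 11.5 and 12.1 at D3, 8.92 and 8.43 at D6, 6.71 and 6.41 at D9, and 4.74 and 4.32 in ESC, with no overlap between stages, and fell 3.96-fold from MEF to ESC (log2 fold change -1.98 ± 0.04, adjusted p = 1.5e-14). Smarcc1 measured 17.8 and 19.95 TPM in MEF, 16.3 and 21.8 at D3, 35.8 and 28.4 at D6, 32.6 and 29.8 at D9, and 39.4 and 31.4 in ESC. In TPM its MEF and D3 libraries overlapped, as did D6, D9 and ESC, whereas in CPM no stage overlapped the next. Its log2 fold change was 0.14 for D3 over MEF (adjusted p = 0.0045) and 0.92 for ESC over MEF. Smarcc1 over Smarcc2, as a log2 ratio, went from 0.15 in MEF through 0.67, 1.87 and 2.23 to 2.93 in ESC (exact p = 0.00106, adjusted 0.00222).

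The 3 Smarcd genes encode the BAF60 subunits, of which a complex holds a single one. Smarcd1 (BAF60A) rose 3.45-fold from MEF to ESC (log2 fold change 1.78 ± 0.04, adjusted p = 5.5e-14), with 6.01 and 5.34 TPM in MEF, 10.9 and 11.4 at D3, 18.5 and 18.7 at D6, 16.5 and 16.3 at D9, and 20.8 and 20.4 in ESC. Smarcd2 (BAF60B) was the most abundant of them in every library, at 33.7 to 45.5 TPM, and passed in no comparison. Smarcd3 (BAF60C), known from muscle and heart, measured 11.9 and 12.2 TPM in MEF, 6.63 and 7.22 at D3, 1.36 and 1.21 at D6, 0.965 and 0.668 at D9, and 4.28 and 4.35 in ESC. It fell 4.96-fold from D3 to D6 (log2 fold change -2.31 ± 0.10, adjusted p = 6.4e-11) and was 6.40-fold higher in ESC than at D9 (log2 fold change 2.68 ± 0.11, adjusted p = 3.9e-11). ESC stood at 34.6% of the MEF level of Smarcd3, while the summed fibroblast markers stood at 8.95% of theirs, with feeder fibroblasts in the ESC cultures. The part of feeder RNA in this value was not tested.

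Smarcd1 passed from 2.65 log2 units below Smarcd2 in MEF to 0.81 below it in ESC, and from 1.08 below Smarcd3 in MEF to 4.19 above it at D9 and 2.23 above it in ESC. Both ratios differed between stages at the smallest possible exact p (0.00106, adjusted 0.00222).

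Actl6a (BAF53A), an actin-related subunit shared by BAF, INO80 and TIP60 complexes, measured 36.6 and 39.3 TPM in MEF, 41.2 and 41.7 at D3, 64.1 and 60.3 at D6, 66.5 and 64.2 at D9, and 127 and 122 in ESC. ESC exceeded MEF 3.11-fold (log2 fold change 1.64 ± 0.04, adjusted p = 4.3e-14), and D6 and D9 differed by a log2 fold change of 0.15. Its neuronal paralog Actl6b had at most 4 reads, so the ratio of the pair (log2 8.43 in MEF, 8.6 at D3, 9.12 at D6, 9.17 at D9 and 9.55 in ESC) mostly follows the value added to each TPM. Smarce1 (BAF57) was the most abundant BAF gene over the 10 libraries, with a mean of 66.8 TPM, and Smarcb1 (BAF47), a core subunit, ranged from 35.3 to 45.9. Neither passed in any comparison.

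The ARID subunits decide which BAF version forms. Arid1a (BAF250A) measured 7.88 and 7.28 TPM in MEF, 10.8 and 11.97 at D3, 14.2 and 13.9 at D6, 12.2 and 12.6 at D9, and 15.5 and 14.5 in ESC, a log2 fold change of 0.89 for ESC over MEF that missed the fold minimum. Arid1b (BAF250B) measured 5.36 and 4.99 in MEF, 3.57 and 4.24 at D3, 4.45 and 5.52 at D6, 3.496 and 2.92 at D9, and 2.38 and 2.65 in ESC. It fell 2.01-fold from MEF to ESC (log2 fold change -1.01 ± 0.06, adjusted p = 8.3e-10), a call that stood just past the fold minimum and was lost without ESC replicate 2, at -0.98. The call was also lost with library sizes alone (-0.67) and with limma (-0.81). As a log2 ratio, Arid1a over Arid1b was 0.54 in MEF, 1.52 at D3, 1.49 at D6, 1.92 at D9 and 2.53 in ESC (exact p = 0.00317, adjusted 0.00444). Arid2 (BAF200), which marks PBAF, peaked at D6 with 7.73 and 7.13 TPM against 4.42 to 4.77 in the MEF and ESC libraries, and its log2 fold change for ESC over MEF was 0.01.

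Brd9 belongs to the non-canonical BAF complex and Brd7 to PBAF. Brd7 ranged from 36.9 to 47.3 TPM and Brd9 from 5.75 to 9.41, and neither passed. Their log2 ratio, Brd9 over Brd7, was -2.27 in MEF, -2.30 at D3, -2.41 at D6, -2.55 at D9 and -2.91 in ESC (exact p = 0.00317, adjusted 0.00444), and both ESC libraries were below all others.

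In all, 15 BAF and PBAF genes of the set were tested. From MEF to ESC 2 passed as higher (Smarcd1 and Actl6a) and 4 as lower (Smarca2, Smarcc2, Smarcd3 and Arid1b), or 13.3% and 26.7% of the 15 against 25.5% and 20.6% of all genes, with a median log2 fold change of 0.01 against 0.10 over all genes. Their summed level was 343 ± 14.8 TPM in MEF (SD, n = 2), 419 ± 10.3 at D3, 439 ± 12.7 at D6, 394 ± 3.86 at D9 and 431 ± 14.8 in ESC. Of 12 further subunit genes with other names, 2 rose (16.7%, against 14.6% of all genes) and 1 fell (8.33% against 14.5%) from MEF to D3. Bcl11a, a zinc-finger subunit of neural and lymphoid BAF, rose from 3.57 to 67.8 CPM (log2 fold change 4.27 ± 0.10, adjusted p = 4.1e-14), Dpf3, a BAF45 subunit, from 0.294 to 1.05 CPM, and Bcl11b, the relative of Bcl11a, fell from 39.3 to 4.17 CPM (log2 fold change -3.23 ± 0.14, adjusted p = 3.7e-11). Dpf1, another BAF45 gene, rose from 4.97 CPM at D3 to 12.1 at D6. None of the 12 passed between D6 and D9, and between D9 and ESC 4 were lower in ESC (33.3% against 14.3%), led by Bcl11a at 2.20 against 48.7 CPM, Bcl11b at 2.57 against 8.64 and Dpf3 at 0.504 against 1.54. Between MEF and ESC Bcl11b was the only one to pass, as lower.

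The ISWI motors SNF2H and SNF2L, encoded by Smarca5 and Smarca1, space nucleosomes in several small complexes, and Bptf is the large subunit of NURF, which uses SNF2L. Smarca1 measured 2.83 and 2.17 TPM in MEF, 0.555 and 0.254 at D3, 0.123 and 0.0542 at D6, 0.0376 and 0.0361 at D9, and 1.08 and 1.14 in ESC. In TPM no stage overlapped the next, although D6 and D9 rest on 10 to 22 reads a library and overlap in reads. It fell 9.59-fold from MEF to D3 (log2 fold change -3.26 ± 0.15, adjusted p = 1.3e-10) and a further 3.62-fold to D6, and ESC was 25.1-fold above D9 (log2 fold change 4.65 ± 0.21, adjusted p = 8.3e-11). ESC reached 49.0% of the MEF level and D9 1.92%. The fibroblast markers stood at 8.95% and 0.147%, and the part of feeder RNA was not tested. Smarca1 is X-linked, and the part of the Xist levels given above in its changes was not tested either. The fall of Smarca1 between MEF and ESC (log2 fold change -1.03 ± 0.13, adjusted p = 4.6e-06) was lost without MEF replicate 2 (-0.99) or without ESC replicate 1 (-0.96). It was also lost with library sizes alone (-0.69) and with limma (-0.72).

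Smarca5 measured 22.8 and 24.95 TPM in MEF, 24.0 and 27.6 at D3, 42.7 and 38.6 at D6, 40.4 and 43.0 at D9, and 57.1 and 47.7 in ESC, a log2 fold change of 0.91 between MEF and ESC. A pseudogene of it, Smarca5-ps, is counted separately, and reads shared by the copies may have been split. Smarca5 exceeded Smarca1 by 3.21 log2 units in MEF, 5.75 at D3, 7.78 at D6, 8.25 at D9 and 5.43 in ESC (exact p = 0.00529, adjusted 0.00694). Bptf was highest at D6, at 27.2 and 25.5 TPM against 12.99 and 12.03 in MEF and 17.7 and 16.9 in ESC, and passed in no comparison. Among 9 other ISWI partner genes, Hmgxb4, a NURF subunit, rose from 29.1 CPM in MEF to 94.8 at D3 (log2 fold change 1.70 ± 0.05, adjusted p = 1.0e-12). Cecr2, a bromodomain partner of ISWI, rose from 0.297 CPM at D3 to 1.18 at D6, 3.92 at D9 and 68.1 in ESC (log2 fold change 4.11 ± 0.08 for ESC over D9, adjusted p = 1.3e-14). Baz1a, the ACF1 subunit, was lower in ESC (50.9 CPM) than at D9 (138), as was Hmgxb4 (66.7 against 164). Of the 9, 3 (33.3%, against 25.5% of all genes) passed as higher in ESC than in MEF, namely Cecr2, Baz2a (287 against 74.7 CPM) and Hmgxb4 (66.7 against 29.1).

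Of the NuRD motors, Chd3 fell and Chd4 did not pass. Chd3 (Mi-2 alpha) measured 124 and 122 TPM in MEF, 102 and 113 at D3, 84.8 and 81.4 at D6, 38.3 and 40.9 at D9, and 15.95 and 12.9 in ESC. No stages overlapped, and it fell 2.02-fold from D6 to D9 (log2 fold change -1.02 ± 0.03, adjusted p = 3.2e-11), a further 3.14-fold to ESC (-1.65 ± 0.04, adjusted p = 2.5e-14) and 9.72-fold from MEF to ESC (-3.28 ± 0.04, adjusted p = 2.7e-17). The change from D6 to D9 was at the fold minimum, with -0.98 under a length offset or a stricter filter and was lost with library sizes alone as well. Chd4 (Mi-2 beta) measured 38.6 and 36.3 TPM in MEF, 44.4 and 45.1 at D3, 56.7 and 51.7 at D6, 48.3 and 48.5 at D9, and 52.7 and 52.2 in ESC, and passed nowhere. In TPM, Chd3 exceeded Chd4 by 1.72 log2 units in MEF, 1.26 at D3 and 0.62 at D6, and Chd4 exceeded Chd3 by 0.29 at D9 and 1.86 in ESC (exact p = 0.00106, adjusted 0.00222). In CPM, which is not scaled for length, Chd4 already exceeded Chd3 at D6 (513 against 382). The stage at which the order changed therefore depends on the transcript lengths. Of Chd3 reads, 73.1% to 80.4% were assigned to protein-coding transcripts, against 98.9% to 99.4% for Chd4. Chd5, the neural NuRD motor, was scarce, with 55 and 38 reads in MEF, 33 and 21 at D3, 177 and 217 at D6, 158 and 212 at D9, and 450 and 523 in ESC. It rose 7.71-fold from D3 to D6 (log2 fold change 2.95 ± 0.24, adjusted p = 9.2e-08) and 2.61-fold from D9 to ESC (1.38 ± 0.17, adjusted p = 6.3e-06). Its fall from MEF to D3 (-1.04 ± 0.29, adjusted p = 0.006) was lost without MEF replicate 1 (-0.61) or without D3 replicate 2 (-0.80). That fall was also lost with library sizes alone (-0.84), with a length offset (-0.67) and with limma (-0.09). The rise from D3 to D6 was lost with limma (0.63, adjusted p = 0.08).

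Chd7, mutated in CHARGE syndrome and known at enhancers of stem and neural crest cells, had the largest rise of the set from MEF to D3. It measured 0.133 and 0.198 TPM in MEF, 1.98 and 1.88 at D3, 4.56 and 4.20 at D6, 4.56 and 4.17 at D9, and 4.26 and 3.47 in ESC. D3 exceeded MEF 10.6-fold (log2 fold change 3.40 ± 0.08, adjusted p = 6.0e-14) and D6 exceeded D3 2.30-fold (1.20 ± 0.05, adjusted p = 3.9e-11), after which D6, D9 and ESC stayed within 3.47 to 4.56 TPM. Chd1, a remodeler tied to elongation and to open chromatin in ESCs, measured 7.69 and 7.55 TPM in MEF, 9.35 and 9.66 at D3, 15.6 and 15.2 at D6, 14.3 and 15.3 at D9, and 11.9 and 10.4 in ESC, and passed in no comparison. Chd2 ranged from 21.1 to 33.3 TPM without passing, and the log2 ratio of Chd1 to Chd2 was -1.62 in MEF, -1.54 at D3, -0.88 at D6, -0.68 at D9 and -1.41 in ESC (exact p = 0.0339, adjusted 0.0374). Chd6, Chd8 and Chd9 passed nowhere. The 9 Chd genes summed to 215 ± 2.06 TPM in MEF and 145 ± 9.15 in ESC.

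The Mta genes encode the NuRD scaffold that binds HDAC1 and HDAC2. Mta1 measured 26.3 and 21.7 TPM in MEF, 40.7 and 40.2 at D3, 47.4 and 47.9 at D6, 39.9 and 39.1 at D9, and 23.6 and 21.2 in ESC. The induced stages lay above both ends, and ESC was 2.11-fold below D9 (log2 fold change -1.08 ± 0.05, adjusted p = 3.8e-11), or -0.99 under a length offset. Mta3 measured 17.0 and 15.8 TPM in MEF, 27.6 and 28.1 at D3, 33.3 and 31.7 at D6, 31.0 and 29.7 at D9, and 43.3 and 43.4 in ESC, and rose 2.47-fold from MEF to ESC (1.31 ± 0.04, adjusted p = 7.1e-13). Mta2 stayed between 25.1 and 34.6 TPM. For Mta2 over Mta1 the log2 ratio was 0.34 in MEF, -0.66 at D3, -0.48 at D6, -0.40 at D9 and 0.31 in ESC (exact p = 0.00741, adjusted 0.00915), and that of Mta2 to Mta3 was 0.88, -0.12, 0.07, -0.02 and -0.65 in the same order (exact p = 0.00106, adjusted 0.00222).

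Of the methyl-CpG-binding members, Mbd2 and Mbd3 are alternative NuRD subunits, and MBD2 binds methylated DNA whereas MBD3 in mammals largely does not. Mbd2 measured 50.6 and 48.3 TPM in MEF, 43.2 and 39.7 at D3, 29.3 and 29.0 at D6, 24.1 and 23.3 at D9, and 15.4 and 14.7 in ESC, falling 3.34-fold from MEF to ESC (log2 fold change -1.74 ± 0.06, adjusted p = 2.4e-12). Mbd3 measured 65.9 and 63.9 TPM in MEF, 59.0 and 56.9 at D3, 63.6 and 62.4 at D6, 68.8 and 66.5 at D9, and 79.4 and 77.6 in ESC. On the scaled count used for the test, ESC and MEF differed by a log2 fold change of -0.01. TPM carries no such scaling between libraries, so the small differences of Mbd3 in TPM between stages are not read as changes. Overlap of stages in TPM, given for other genes, can differ from overlap in CPM. The log2 ratio of Mbd3 to Mbd2 was 0.39 in MEF, 0.48 at D3, 1.11 at D6, 1.51 at D9 and 2.38 in ESC (exact p = 0.00106, adjusted 0.00222). Mbd4, a DNA glycosylase for mismatched thymine at CpG, measured 0.823 and 0.733 TPM in MEF, 2.58 and 3.28 at D3, 4.59 and 4.99 at D6, 4.72 and 4.56 at D9, and 3.51 and 3.57 in ESC. It rose 3.76-fold from MEF to D3 (1.91 ± 0.09, adjusted p = 1.4e-10) and stood 4.72-fold higher in ESC than in MEF (2.24 ± 0.09, adjusted p = 8.8e-12). Mbd1, Mbd5 and Mbd6 passed in no comparison.

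Of 8 other NuRD subunits and partners, Sall1 and Sall4, zinc-finger factors that recruit NuRD, carried all the calls. Between MEF and ESC these 2 made 25% of the 8 higher, against 25.5% of all genes. Sall1 rose from 0.702 CPM in MEF to 8.32 at D3, 39.8 at D6, 52.0 at D9 and 162 in ESC, and passed in each of these steps except D6 to D9. Sall4 had 0.0305 CPM in MEF and 0.151 at D3, rose to 22.5 at D6 (log2 fold change 7.15 ± 0.18, adjusted p = 2.5e-13) and 47.9 at D9, and reached 180 in ESC. Its 2 reads in the MEF pair against 12871 in the ESC pair give a ratio of 6829 with a 95% exact interval of 1890 to 56393, which covers counting error only.

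Of the 5 INO80 genes a single one passed, as higher in ESC than in MEF (20%, against 25.5% of all genes). Ino80 itself, the ATPase that slides and edits H2A.Z nucleosomes, measured 3.34 and 3.11 TPM in MEF, 4.69 and 4.77 at D3, 5.07 and 5.36 at D6, 4.49 and 4.38 at D9, and 9.26 and 6.82 in ESC, and was 2.08-fold higher in ESC than in MEF (log2 fold change 1.06 ± 0.04, adjusted p = 1.9e-11). DESeq2 put it at 0.98. Ino80b, Ino80c, Ino80d and Ino80e passed nowhere. Ino80e was the most abundant (27.2 to 48.0 TPM) and Ino80d the scarcest (1.07 to 2.14 TPM). Among 21 other INO80, SRCAP and TIP60 genes, Mbtd1 of TIP60 rose from 29.2 CPM in MEF to 84.3 at D3 (log2 fold change 1.52 ± 0.06, adjusted p = 9.4e-12), and 4 of the 21 (19%, against 25.5% of all genes) were higher in ESC than in MEF with none lower. The largest of these were the AAA+ ATPase Ruvbl2 (280 against 71.9 CPM), Mbtd1 (109 against 29.2) and the other ring ATPase Ruvbl1 (120 against 46.7).

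Smarcad1, a remodeler that keeps silent chromatin in place through replication, measured 3.34 and 3.26 TPM in MEF, 4.10 and 4.45 at D3, 6.01 and 5.46 at D6, 5.86 and 5.63 at D9, and 15.7 and 14.7 in ESC. ESC was 2.38-fold above D9 (log2 fold change 1.25 ± 0.05, adjusted p = 7.0e-12) and 4.36-fold above MEF (2.12 ± 0.05, adjusted p = 2.8e-14), with no overlap of ESC with any other stage. Smarcal1, an annealing helicase at stalled forks, stayed between 6.34 and 9.90 TPM and passed nowhere.

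Class I deacetylases are the nuclear enzymes of NuRD, Sin3, CoREST and NCoR, and none of the 4 passed in any comparison. Between MEF and ESC, 25.5% of all genes passed as higher and 20.6% as lower, and 4 genes are too few to set against these shares. Hdac1 went in TPM from 34.7 and 35.6 in MEF to 44.8 and 43.4 at D3, 57.7 and 59.1 at D6, 64.1 and 60.9 at D9, and 78.7 and 82.1 in ESC. Its log2 fold change for ESC over MEF, 0.99, lay just inside the fold minimum. Hdac2 measured 57.7 and 57.6 in MEF, 63.7 and 58.6 at D3, 84.5 and 87.5 at D6, 82.5 and 82.0 at D9, and 61.2 and 60.7 in ESC, so that D6 and D9 stood above both ends. Hdac1 lay 0.71 log2 units below Hdac2 in MEF, 0.47 at D3, 0.56 at D6 and 0.40 at D9, and 0.40 above it in ESC (exact p = 0.00106, adjusted 0.00222). Hdac3, the NCoR enzyme, ranged from 19.1 to 28.2 TPM, and Hdac8 from 3.14 to 6.92. Summed over the 4 genes the level was 122 ± 0.424 TPM in MEF (SD, n = 2), 140 ± 4.99 at D3, 175 ± 2.65 at D6, 175 ± 2.66 at D9 and 164 ± 1.45 in ESC.

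Class IIa enzymes shuttle between cytoplasm and nucleus and repress MEF2 targets, and Hdac7 was the one of them with the largest fall between MEF and ESC. Hdac7 measured 29.0 and 26.6 TPM in MEF, 30.8 and 36.3 at D3, 21.5 and 19.7 at D6, 12.1 and 11.8 at D9, and 5.42 and 4.23 in ESC. It was 2.54-fold lower in ESC than at D9 (log2 fold change -1.34 ± 0.04, adjusted p = 2.0e-12) and 6.05-fold lower than in MEF (-2.60 ± 0.04, adjusted p = 7.4e-16), with D6, D9 and ESC each below all earlier libraries. Hdac5 measured 31.9 and 36.4 TPM in MEF, 45.2 and 49.2 at D3, 34.6 and 31.3 at D6, 35.8 and 30.9 at D9, and 20.7 and 20.4 in ESC, without passing. Hdac4 measured 4.54 and 3.38 TPM in MEF, 4.69 and 6.23 at D3, 10.1 in both D6 libraries, 7.13 and 6.52 at D9, and 5.98 and 4.24 in ESC. In counts it rose 2.05-fold from MEF to D3, from 29.7 to 60.6 CPM (1.03 ± 0.06, adjusted p = 6.6e-10). With transcript length taken into account the change was 0.47, and without MEF replicate 2 it was 0.95, and the call was lost in both. Hdac9 rested on 7 to 75 reads a library, with 44 and 75 in MEF, 49 and 59 at D3, 25 and 25 at D6, 7 and 14 at D9, and 42 and 45 in ESC. It passed as lower from D3 to D6 (-1.03 ± 0.32, adjusted p = 0.013) and from D6 to D9 (-1.33 ± 0.38, adjusted p = 0.015), and as higher in ESC than at D9 (2.04 ± 0.36, adjusted p = 1.9e-04). The fall to D6 was lost without D3 replicate 2 (-0.83) or D6 replicate 1 (-1.02), and the fall to D9 without D6 replicate 1 (-1.35), D6 replicate 2 (-1.31) or D9 replicate 1 (-1.07). ESC stood at 62.4% of the MEF level of Hdac9 and D9 at 14.8%, beside the fibroblast markers at 8.95% and 0.147%, and the part of feeder RNA was not tested. The 4 class IIa genes summed to 66.1 ± 0.701 TPM in MEF, 86.4 ± 7.82 at D3, 63.7 ± 3.69 at D6, 52.1 ± 4.14 at D9 and 30.6 ± 2.29 in ESC. The log2 ratio of Hdac5 to Hdac4 was 3.09 in MEF, 3.10 at D3, 1.69 at D6, 2.27 at D9 and 2.01 in ESC (exact p = 0.0169, adjusted 0.0198).

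Hdac6 is a mostly cytoplasmic class IIb enzyme that deacetylates tubulin. It measured 5.73 and 4.99 TPM in MEF, 12.5 and 13.1 at D3, 28.2 and 25.9 at D6, 27.8 and 26.6 at D9, and 18.4 and 17.7 in ESC. It rose 2.28-fold from MEF to D3 (log2 fold change 1.19 ± 0.04, adjusted p = 5.7e-12), 2.24-fold from D3 to D6 (1.17 ± 0.04, adjusted p = 2.8e-12) and 3.37-fold from MEF to ESC (1.75 ± 0.04, adjusted p = 3.4e-14). D6 and D9 overlapped in TPM but not in CPM, where the log2 fold change for D9 over D6 was 0.12 (adjusted p = 0.015). The gene is X-linked, and the part of the Xist levels given above in these changes was not tested. Hdac10, a polyamine deacetylase of the same class, measured 3.64 and 3.37 TPM in MEF, 5.39 and 5.25 at D3, 3.06 and 3.37 at D6, 2.39 and 2.15 at D9, and 2.23 and 1.96 in ESC, and Hdac11, the class IV enzyme, ranged from 1.74 to 4.27. Neither passed. The log2 ratio of Hdac6 to Hdac10 was 0.60 in MEF, 1.25 at D3, 3.03 at D6, 3.53 at D9 and 3.05 in ESC (exact p = 0.00317, adjusted 0.00444).

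Sirtuins deacetylate with NAD+ as co-substrate, SIRT1 mainly in the nucleus and SIRT2 mainly in the cytoplasm, and these 2 moved in opposite directions. Sirt1 measured 4.08 and 3.18 TPM in MEF, 6.66 and 6.13 at D3, 8.58 and 9.32 at D6, 6.63 and 7.61 at D9, and 12.1 and 10.6 in ESC, rising 3.07-fold from MEF to ESC (log2 fold change 1.62 ± 0.07, adjusted p = 2.1e-11). Sirt2 measured 34.6 and 38.3 TPM in MEF, 28.9 and 31.3 at D3, 18.6 and 18.5 at D6, 17.1 and 18.4 at D9, and 12.6 and 12.4 in ESC, falling 3.42-fold (-1.77 ± 0.05, adjusted p = 1.3e-13). Sirt3 to Sirt7 passed in no comparison, and Sirt5 was the scarcest sirtuin at 1.88 to 3.70 TPM.

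Of 17 deacetylase corepressor genes, Sap30 of Sin3 rose from 13.8 CPM in MEF to 32.0 at D3, and the CoREST gene Rcor2 fell from 32.3 to 5.87, then rose to 18.1 at D6 and from 29.4 at D9 to 190 in ESC (log2 fold change 2.69 ± 0.06 for ESC over D9, adjusted p = 2.8e-14). Gps2 of NCoR was lower in ESC (13.5 CPM) than at D9 (30.5). Between the end points 3 were higher in ESC (17.6%, against 25.5% of all genes), namely Rcor2, Sap30 at 62.9 CPM and Sin3a at 184 against 68.6. Lower in ESC were 2 (11.8%, against 20.6% of all genes), among them Rcor3 (10.4 against 37.9).

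The bromodomain genes outside BAF had a median absolute log2 fold change of 0.27 between MEF and ESC, against 0.70 over the 73 genes and 0.98 over all genes. Brd2 and Brd3 encode BET proteins, which tie acetylated histones to transcription elongation. Brd2 ranged from 71.7 to 85.9 TPM over the 10 libraries, Brd1 from 7.499 to 10.5, Brd3 from 9.15 to 20.4 and Brd8, of TIP60, from 9.71 to 20.4, and none of these passed in any comparison. Their largest log2 fold changes between MEF and ESC were 0.93 (Brd8) and 0.54 (Brd3). The log2 ratio of Brd2 to Brd3 was 2.91 in MEF, 2.21 at D3, 2.10 at D6, 2.16 at D9 and 2.29 in ESC (exact p = 0.0942, adjusted 0.0989), and this pair did not pass. Of 14 acetyltransferase and other bromodomain genes, Atad2, an AAA+ bromodomain ATPase, rose from 63.9 CPM in MEF to 131 at D3, and the testis gene Brdt fell from 1.34 at D3 to 0.554 at D6 and was 2.02 in ESC against 0.388 at D9. Trim28 (KAP1), the corepressor of KRAB zinc-finger proteins, rose from 590 CPM at D9 to 1490 in ESC (log2 fold change 1.34 ± 0.03, adjusted p = 8.9e-14), and 4 of the 14 (28.6%, against 25.5% of all genes) were higher in ESC than in MEF, led by Trim28 (1490 against 347), Trim24 (130 against 42.6) and the GCN5 gene Kat2a (112 against 49.9).

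Among Arid genes outside BAF, Arid3b, the gene of an AT-rich DNA-binding protein of the Bright family, had the largest change of the set between MEF and ESC. It measured 0.631 and 0.774 TPM in MEF, 3.60 and 4.45 at D3, 3.51 and 5.01 at D6, 7.03 and 7.90 at D9, and 24.1 and 24.6 in ESC. D3 exceeded MEF 4.98-fold (log2 fold change 2.32 ± 0.12, adjusted p = 6.2e-10), ESC exceeded D9 3.11-fold (1.64 ± 0.07, adjusted p = 5.1e-11) and ESC exceeded MEF 25.8-fold (4.69 ± 0.10, adjusted p = 1.5e-14). D3 and D6 overlapped in TPM but not in CPM, where the log2 fold change for D6 over D3 was 0.22 (adjusted p = 0.042). The other steps overlapped in neither. Arid3a, its closest relative, stayed at 1.19 to 1.82 TPM and passed nowhere, so that their log2 ratio, Arid3a over Arid3b, went from 0.88 in MEF through -1.40, -1.24 and -2.36 to -4.03 in ESC (exact p = 0.00212, adjusted 0.0037).

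The upstream window of Arid3b is shown because that gene rose most and its window is dense in the KLF and SP type box. Counted the same way, Mbd6 held 8 boxes and Mbd5 and Brd2 held 6 each, and these genes passed in no comparison. Of genes that were higher in ESC than in MEF, Chd5 held 6 and Smarcad1 held 0. A link between boxes and changes was not tested. It covers chr9:57836794-57837029 (GRCm38.p6, minus strand, RefSeq), ends before the annotated gene start and carries matches to CCNCNCCC in capitals, 7 of them where overlapping matches count separately.
Arid3b: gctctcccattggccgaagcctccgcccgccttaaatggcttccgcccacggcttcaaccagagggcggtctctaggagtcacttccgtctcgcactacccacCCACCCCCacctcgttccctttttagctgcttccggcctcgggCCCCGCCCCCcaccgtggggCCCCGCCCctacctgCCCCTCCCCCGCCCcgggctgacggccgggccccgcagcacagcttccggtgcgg
No binding was measured in these libraries, so a match is a description of the letters only.

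Arid3c was close to absent, with 0 and 1 reads in MEF, 0 in both D3 libraries, 0 and 1 at D6, 3 and 4 at D9, and 14 and 14 in ESC. The ESC pair over the MEF pair gave a ratio of 29.7 per library read (95% exact interval 4.91 to 1215) and ESC over D9 a ratio of 4.10 (1.75 to 11.1), both covering counting error only. The call for ESC over D9 was lost without any single D9 or ESC library and, at an adjusted p of 0.054, with the replicate number as a block. Arid5b, a partner of the demethylase PHF2, measured 10.9 and 10.4 TPM in MEF, 17.5 and 19.6 at D3, 19.0 and 18.1 at D6, 11.9 and 11.3 at D9, and 6.21 and 6.04 in ESC, and fell 2.11-fold from D9 to ESC (log2 fold change -1.07 ± 0.04, adjusted p = 3.8e-11). Arid5a, a relative known to bind RNA, measured 5.73 and 6.11 TPM in MEF, 2.98 and 3.79 at D3, 1.22 and 1.13 at D6, 1.87 and 0.759 at D9, and 1.96 and 2.71 in ESC, and fell 2.22-fold from MEF to ESC (-1.15 ± 0.13, adjusted p = 1.9e-06), or -0.81 with library sizes alone. Their log2 ratio, Arid5a over Arid5b, was -0.83 in MEF, -2.43 at D3, -3.88 at D6, -3.17 at D9 and -1.37 in ESC (exact p = 0.00106, adjusted 0.00222). Arid4a and Arid4b, Sin3-associated relatives, passed nowhere and their log2 ratio was -1.81, -1.43, -1.65, -1.86 and -1.02 (exact p = 0.00106, adjusted 0.00222).

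Across the 21 pairs of related genes, 19 had a TPM ratio that differed between stages by the exact permutation test after Benjamini-Hochberg adjustment, 10 of them at the smallest p that 10 libraries in 5 pairs allow. Pairs of unrelated genes were not tested, so the count of 19 cannot be read as particular to related genes. Between ESC and MEF, 76.6% of all genes tested differed at the adjusted p alone. The stage means of the log2 ratio spanned at least 1 in 16 pairs. Both counts include Actl6a and Actl6b, of which Actl6b had too few reads to be tested and whose ratio mostly follows the value added to each TPM, so this pair supports neither count. In 7 pairs the more abundant gene changed between stages: Smarca4 and Smarca2, Smarcd1 and Smarcd3, Chd4 and Chd3, Mta2 and Mta1, Mta2 and Mta3, Hdac1 and Hdac2, and Arid3a and Arid3b. For Smarca4 and Smarca2 this change of order rested on late-starting Smarca2 transcripts, since the early-starting ones stayed below Smarca4 in every library. For Chd4 and Chd3 the order changed between D6 and D9 in TPM but between D3 and D6 in CPM, which is not scaled for length. Across the pairs the ratios did not move in a single direction. The ratio moved one way at every step for, among others, Smarcc1 over Smarcc2, Chd4 over Chd3 and Mbd3 over Mbd2, whereas Smarca4 over Smarca2 first fell to D3 and then climbed, and Smarcd1 over Smarcd3, Smarca5 over Smarca1 and Hdac6 over Hdac10 were highest at D9 rather than in ESC. With 2 libraries a stage, no pair of stages can be separated by the exact test on its own, since its smallest two-sided p is 0.333.

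**Figure D3:**
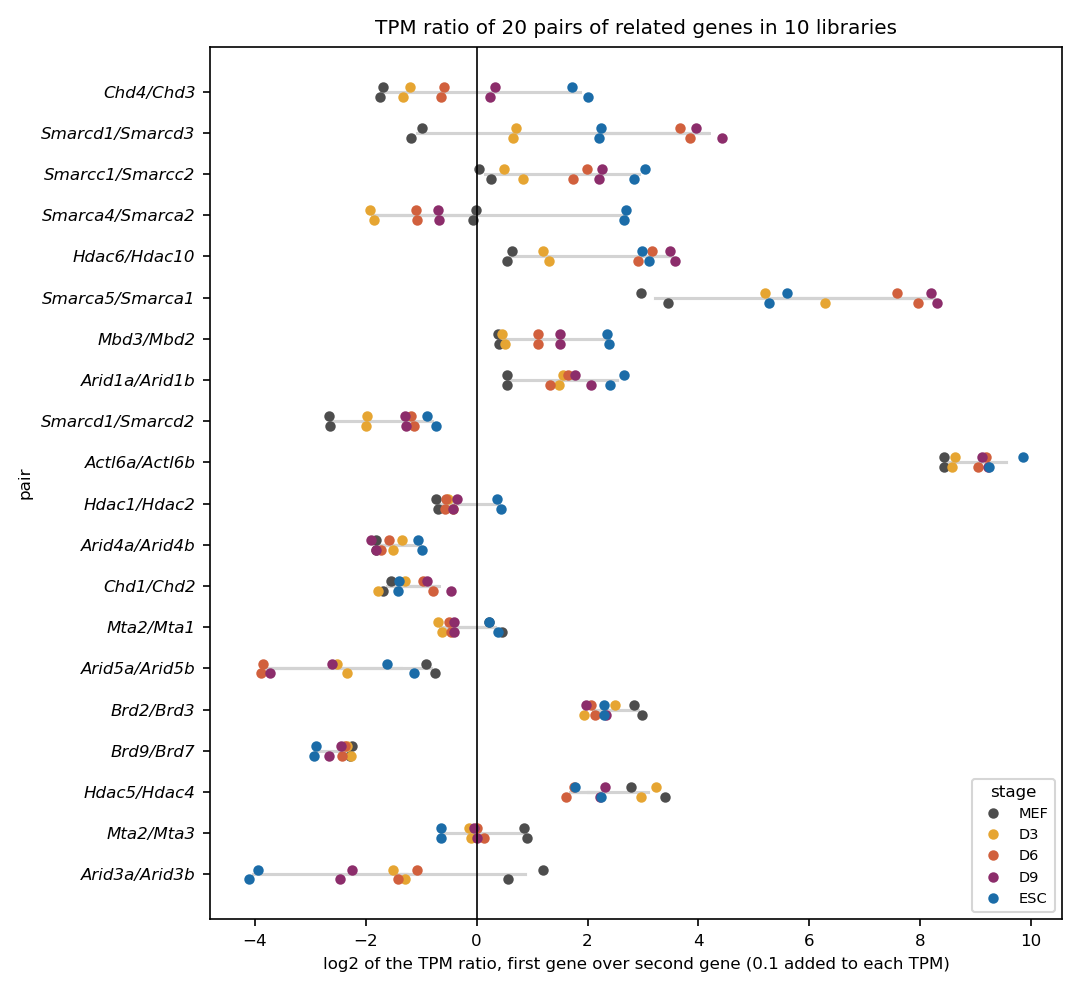
Log2 ratio of TPM for 20 of the 21 pairs of related genes (rows, ordered by the ESC value minus the MEF value), with a point for each of the 10 libraries coloured by stage and a line over the range of stage means. Smarca4/Smarca2, Chd4/Chd3 and Smarcd1/Smarcd3 cross the zero line. TPM is summed over all transcripts of a gene, and for Smarca2 most of it lies on late-starting transcripts.

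**Figure D4:**
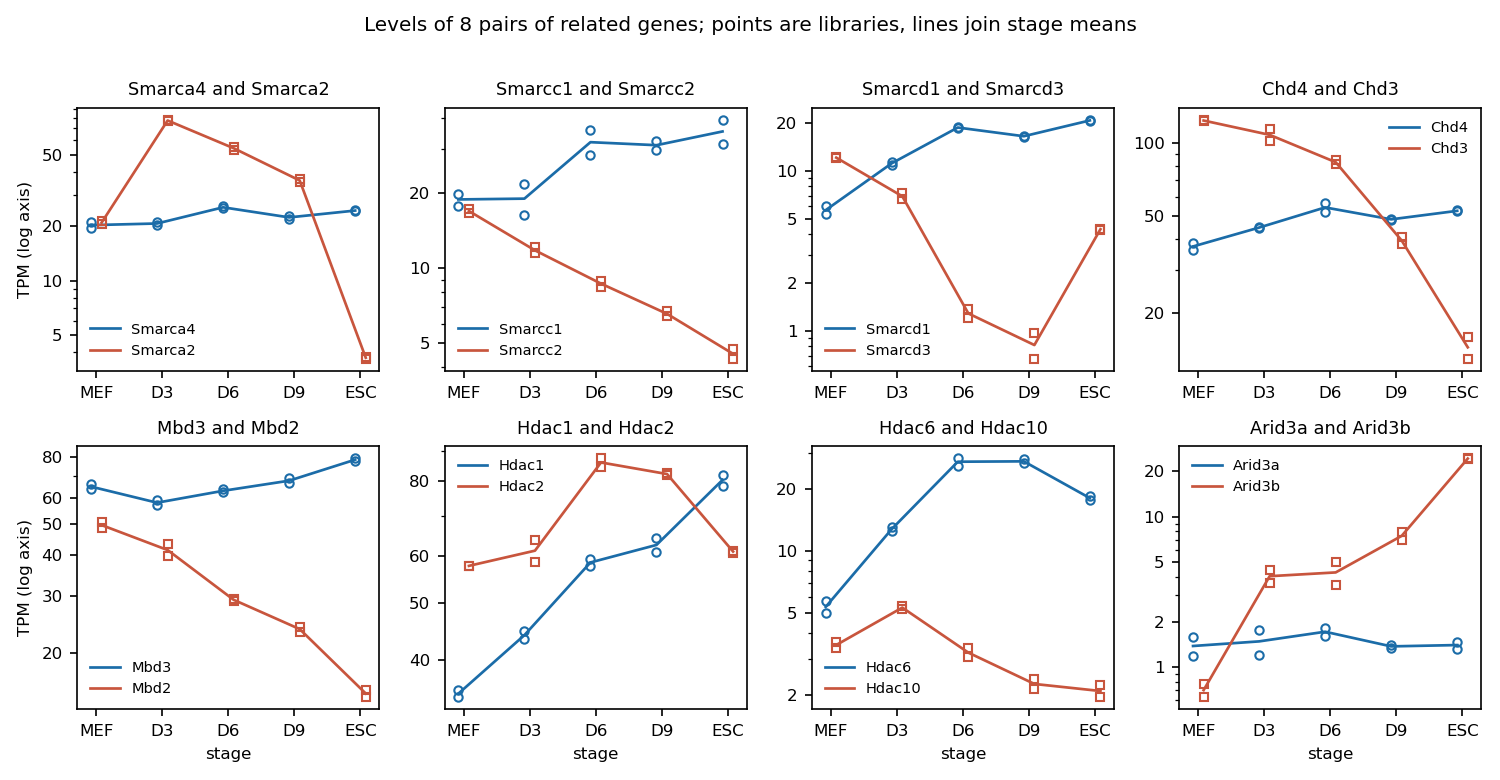
TPM (log axis) of 8 pairs by stage, with open symbols for the 2 libraries of each stage and lines through their means. Summed over all its transcripts, Smarca2 peaks at D3 above a flat Smarca4. Chd3 and Mbd2 go down beside partners that passed in no comparison, and Arid3b goes up beside Arid3a.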

How the data were processed

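Gene expression was measured by single-end RNA-seq of poly(A) RNA in 10 libraries, prepared with a stranded kit per the labels' protocols. Transcripts were quantified against mm10 with Salmon 0.8.2, per the submitters' processing notes. The strand setting and annotation release are not given in the sources used here. The deposited tables hold estimated counts (whole reads shared among transcripts), TPM (transcript abundance which the authors' tool corrects for transcript length and library depth) and an effective length per transcript, which is a length in bases, for 109617 transcripts. Estimated counts and TPM were summed by gene and counts were rounded. 23 of the 76 genes have an exon overlapping an antisense gene and 8 overlap another gene on the same strand in GENCODE M21.

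All 10 libraries entered a single edgeR 4.0.16 quasi-likelihood fit (R 4.3.3) with TMM scaling and filterByExpr (minimum count 10, minimum total 15), Benjamini-Hochberg adjustment over 20165 genes and 5 residual degrees of freedom. The common biological coefficient of variation was 3.75%. CPM is TMM-scaled. Replicates differed by more than counting noise (chi-square per degree of freedom 2.83 to 5.21). In a simulation of D3 against MEF on 20165 genes, 48% of 2-fold and 100% of 4-fold changes were called and no unchanged gene was. The 2-fold changes lay at the fold minimum, and 95% of them passed the adjusted p. Every simulated gene had the same spread, and changes were placed only in genes above a minimum mean level. The simulation therefore does not cover changes in the scarcest genes or genes with a wider spread. Ratios of related genes used log2(TPM + 0.1) and an exact permutation test over 945 splits, one-sided in F, with Python 3.11.15 and scipy 1.17.1. Alternatives were DESeq2 1.42.0, limma 3.58.1 on log2(TPM + 1), other filters and scalings, a length offset, a replicate block and leaving out each library.

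The genes named are both members of each pair, every gene that passed, the highest and lowest gene of each role and, of the further subunit lists, up to 3 genes per direction and comparison. The genes, pairs and lists were chosen with earlier results of these data known. Counts at the adjusted p alone, the split of Smarca2 transcripts and the pairs on protein-coding transcripts only were added after the data were seen. Some genes of the set and lists are not reported here.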

Additional observations from a re-analysis of the deposited data

How the results depend on the processing

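Of the 50 changes of single genes that passed, 0 reversed in any alternative, 17 lost the call in at least 1, and 7 lost it without 1 library, each given with its gene above. Without a fold minimum the counts became 44 higher and 14 lower (D3 over MEF), 36 and 21 (D6 over D3), 8 and 23 (D9 over D6), 23 and 36 (ESC over D9) and 39 and 24 (ESC over MEF). The falls from MEF to D3 dropped to 1 with library sizes alone, the length offset or limma, and those from D6 to D9 to 1 with DESeq2, library sizes alone, the length offset or limma and to 0 with the stricter filter of 10 CPM in 2 libraries, which no longer tested Hdac9. limma called 1 rise from D3 to D6 and 3 falls from D9 to ESC, and the cause was not tested. Library sizes alone gave 19 rises from MEF to ESC. At the adjusted p alone, DESeq2 gave 29 rises and library sizes alone 7 falls from MEF to D3. The 8 rises from D6 to D9 became 5 with DESeq2, 5 with no low-count filter, 15 with the stricter filter, 3 with the length offset and 1 with limma, and the 23 falls became 14 with the length offset, and the cause was not tested. Without single libraries, the falls from D6 to D9 numbered 1 to 2 and the rises at the adjusted p alone 2 to 9.

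With the replicate block the rises and falls were 6 and 2, 3 and 3, 0 and 2, 6 and 5, and 12 and 10 in the order above, and 19 of 21 pairs passed. The block changed 1 call, Arid3c in ESC over D9. Same-numbered libraries shared no detectable deviation (correlation -0.02 to 0.022 over 10 pairs of libraries). This check cannot tell whether they came from the same culture or animal. Depth limits the 7 tested genes with fewer than 100 reads in some library. For ESC minus MEF, the log2 ratio of Arid3a to Arid3b was -3.88 with log2(TPM + 1) in place of -4.91, and with protein-coding transcripts only Hdac6 over Hdac10 was 3.28 in place of 2.45 and Mbd3 over Mbd2 1.46 in place of 1.98.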

Other observations

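Levels per length placed a few genes above the rest of the set. Brd2 had the highest mean over the 10 libraries at 77.9 TPM, followed among the role leaders by Chd3 (73.6), Hdac2 (69.6), Smarce1 (66.8) and Mbd3 (66.4), and the lowest tested genes were Arid3c (0.0419) and Hdac9 (0.128). By stage, 34 of the 73 tested genes were lowest in MEF (46.6%, against 35.7% of all genes tested) and 22 were lowest in ESC (30.1% against 24.7%). The highest level fell in ESC for 20 genes (27.4% against 28.4%), at D6 for 17 (23.3% against 13.2%), in MEF for 13 (17.8% against 26.5%), at D3 for 12 (16.4% against 15.7%) and at D9 for 11 (15.1% against 16.2%). The summed level of all 76 genes was 1282 ± 33.8 TPM in MEF (SD, n = 2), 1449 ± 45 at D3, 1535 ± 33.4 at D6, 1365 ± 20.3 at D9 and 1413 ± 33.8 in ESC. Sirtuins went from 73.9 ± 1.89 TPM in MEF to 57.7 ± 0.207 in ESC, and the 5 INO80 genes from 48.6 ± 3.73 to 72.9 ± 2.30.

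The share of reads assigned to protein-coding transcripts was low and uneven for Hdac10, from 5.4% in a D6 library to 60.3% in an ESC library, with replicates of a stage as far apart as 60.3% and 10.6% in ESC. It was lower still for Sirt4, at 1.4% to 11.4%. Of the genes whose rise or fall between MEF and ESC passed, Arid5a had 17.6% to 43.4% and Sirt1 20.2% to 51.7%. Others that passed there were also low or uneven, among them Sirt2 (38.2% to 63.7%), Actl6a (41.5% to 50.1%) and Chd5 (26.4% to 87.6%). Mbd2 had 58.9% to 67.9% of its reads on protein-coding transcripts.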
